A study of Mus musculus with 15 samples.

Results

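The genes of the pathway by which leukaemia inhibitory factor (LIF) acts through STAT3 were followed in mouse embryonic stem cells (ESCs) from which OCT4, the pluripotency factor that *Pou5f1* encodes, was removed. They were a listed set of 10 of the 48709 genes counted, and were chosen by name: the receptor genes *Lifr*, *Il6st* and *Osmr*, the kinase gene *Jak1*, the transcription factor gene *Stat3*, the feedback inhibitor genes *Socs3* and *Socs2*, and the STAT3 target genes *Junb*, *Pim1* and *Gbx2*. LIF binds LIFR, which pairs with the shared subunit IL6ST. The JAK kinases held on these receptors are then activated and phosphorylate STAT3, which enters the nucleus and induces its targets, among them SOCS3, which in turn shuts off the receptor complex. In mouse ESCs this pathway is known for sustaining self-renewal, and LIF is a usual part of their culture medium.

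RNA was sequenced from ESCs in which OCT4 was removed by either of 2 routes, and the reads were counted per gene in 15 libraries. CreER ESCs (strain Mixed 129SV C57BL/6, genotype Oct4Fl/-; CAG CreER) carry 1 floxed and 1 null *Pou5f1* allele and a tamoxifen-dependent Cre driven by the ubiquitous CAG promoter. 4-hydroxytamoxifen (4-OHT, 500 nM) deletes the floxed allele, and 2 replicate libraries were made at each of 0 (untreated), 12, 18, 24 and 36 h. O4AID ESCs (strain 129SV, genotype Oct4-/- with the transgenes TetOFF Oct4, CAG Oct4AID and CAG Tir1) lack the endogenous gene, hold a wild-type *Oct4* transgene silent with doxycycline (1 µg/ml), and live on a CAG-driven *Oct4* transgene tagged with an auxin-inducible degron. The auxin IAA (500 µM) marks the tagged protein for destruction through the plant F-box protein TIR1, also CAG-driven, and 1 library was made at each of 0 (untreated), 1.5, 6, 10 and 24 h. Every group, controls included, grew in N2B27 medium with mLIF and the inhibitors PD03 (1 µM) and Chiron (3 µM), so the LIF pathway was supplied with ligand throughout. The lines differ together in strain, transgenes, doxycycline and treatment. Doxycycline was added to the O4AID line alone. The 15 libraries include no untreated library of a later time and no control line given 4-OHT or IAA. Within a line, loss of OCT4, the compound and time in culture thus cannot be told apart in these libraries.

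CreER libraries held 21.7 to 30.8 M (mega) counted reads and those of O4AID 40.5 to 48.7 M. All 5 ESC markers looked at (*Pou5f1*, *Nanog*, *Sox2*, *Zfp42* and *Esrrb*) had reads in each of the 15 libraries. Their summed level, scaled over all libraries, was 1703 and 1747 CPM (counts per mega reads) in the untreated CreER libraries and 3717 CPM in the untreated O4AID library, and 1456 and 1506 CPM at 36 h and 1311 CPM at 24 h respectively. The summed level of 5 trophectoderm markers was 26.1 and 28.2 CPM in untreated CreER and 105 and 107 CPM at 36 h, and in O4AID it was 3.10 CPM at 0 h and 16.8 CPM at 24 h. For 6 primitive endoderm markers the sums were 14.4 and 16.5 CPM and then 35.9 and 36.9 CPM in CreER, and 10.6 and then 45.1 CPM in O4AID. All of these trophectoderm and primitive endoderm markers had reads in every CreER library. The 6 mesenchyme or feeder markers summed to 8.16 to 9.88 CPM over the CreER libraries and 2.71 to 5.08 CPM over those of O4AID, where 1 to 3 of the 6 were at 0 reads in each library. The trophectoderm and primitive endoderm sums thus stood higher at the last time in each route, and the ESC sum stood lower. The ESC sum includes *Pou5f1*, the gene deleted in CreER. In O4AID, which lacks the endogenous gene, *Pou5f1* reads can come from the *Oct4* transgenes. There *Pou5f1* stood at 717 CPM at 0 h and 601 CPM at 24 h, scaled within the line. The ESC sums of the 2 lines are therefore not like for like. At 36 h in CreER the edgeR test described below called 3 of the 5 ESC markers lower, *Pou5f1* (log2 change -1.43) among them. It called 1 higher, *Nanog* (0.198, adjusted p 0.000119). It called 5 of the 5 trophectoderm markers higher. Of the 6 primitive endoderm markers it called 2 higher and 1, *Sox7*, lower (-1.70, adjusted p 0.000339). Of all genes tested, 19.4% were higher and 17.2% lower at that time. At 24 h in O4AID, 4 of the 5 ESC markers, all but *Pou5f1*, were past the fold described below downwards and 0 upwards. Of the 4 trophectoderm markers compared there, 1 was past it upwards and 0 downwards. For the 4 primitive endoderm markers compared, the counts were 3 and 0. Of all genes compared, 4.74% were past it upwards and 3.48% downwards. The part of these markers in the values of the 10 genes was not tested. In bulk RNA, fewer cells that express a gene and less RNA of it per cell cannot be told apart. Nothing in the labels says that replicates came from separate cultures, so p-values measure only the spread between these libraries. Intervals cover counting error only, since O4AID has 1 library at each time, and the reads carry no molecular identifiers.

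The STAT-binding element TTCNNNGAA was searched, on both strands, in the 250 bases upstream of each RefSeq start site (GRCm38.p6), because these genes belong to a STAT pathway. It was found in 1 of the 11 promoters held for 9 of the 10 genes, that of *Socs3* (bases -154 to -146 from the start site), against 2306 of all 32851 promoters (7.02%). The octamer ATGCAAAT, to which OCT4 binds, was in 0 of the 11 and in 526 of all promoters (1.60%). A match is a run of letters and not a shown site, and the lack of a match speaks of this window alone. *Socs2* had no entry. The stretches below are the bases of that window that hold no annotated exon, at most 160 of them. *Socs3* is shown for its STAT element, in capitals, and *Stat3* and *Pim1* because they stood on opposite sides of their untreated level in the 2 routes at 24 h. The *Socs3* stretch lies upstream of its RefSeq start site but within the span of the gene as counted (chr11:117966079-117970047).
*Socs3*, chr11:117969452-117969611, minus strand: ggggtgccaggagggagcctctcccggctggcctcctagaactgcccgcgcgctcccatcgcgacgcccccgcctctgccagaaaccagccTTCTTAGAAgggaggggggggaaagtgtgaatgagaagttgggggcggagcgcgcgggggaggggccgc
*Stat3*, chr11:100939541-100939700, minus strand: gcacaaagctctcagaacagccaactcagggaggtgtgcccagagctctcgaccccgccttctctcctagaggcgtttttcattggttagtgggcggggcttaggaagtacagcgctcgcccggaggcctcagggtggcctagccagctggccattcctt
*Pim1*, chr17:29490593-29490752, plus strand: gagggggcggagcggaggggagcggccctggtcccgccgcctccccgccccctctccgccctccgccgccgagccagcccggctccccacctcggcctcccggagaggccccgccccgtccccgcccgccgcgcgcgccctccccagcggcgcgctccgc

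The first question was how high each gene of the pathway stood before OCT4 was touched. Levels of different genes were compared per kilobase of exon, as CPM scaled over the 15 libraries. In the untreated CreER libraries *Pim1*, a serine/threonine kinase gene, stood highest at 30.0 ± 0.936 CPM per kilobase (SD, n = 2). *Socs3* followed at 22.7 ± 0.757, then *Lifr* at 15.5 ± 0.388 and *Junb* at 13.9 ± 0.594 CPM per kilobase. *Jak1* (8.86 ± 0.00138), *Il6st* (8.48 ± 0.115), *Stat3* (8.17 ± 0.351) and *Socs2* (7.89 ± 0.0444) formed a close group in which *Il6st* and *Stat3*, and *Stat3* and *Socs2*, were separated by no more than the SD of *Stat3*. *Gbx2* stood at 6.64 ± 0.283 CPM per kilobase. *Osmr*, the receptor gene for oncostatin M, was at the bottom of the order at 0.0259 ± 0.0135 CPM per kilobase.

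The order in the single untreated O4AID library began likewise with *Pim1* (47.3 CPM per kilobase) and *Socs3* (33.1), but *Jak1* came next at 19.5 CPM per kilobase. *Stat3* (12.0), *Lifr* (10.9) and *Il6st* (10.9) lay close together, and *Gbx2* (4.69), *Junb* (3.24) and *Socs2* (2.02) stood low. *Osmr* was again lowest, at 0.0282 CPM per kilobase. Per gene, *Jak1* was 2.21-fold higher in O4AID than the CreER mean, *Pim1* 1.58-fold, *Stat3* 1.47-fold, *Socs3* 1.45-fold and *Il6st* 1.28-fold higher. *Junb* was 4.31-fold higher in CreER, *Socs2* 3.90-fold, and *Lifr* and *Gbx2* both 1.42-fold higher. In each of these 9 genes the O4AID value lay outside the 2 CreER replicates. The share of all genes for which this held was not computed, so nothing particular to these genes can be read from it. The median log2 difference over the 10 genes, O4AID minus CreER on the log2(CPM + 1) scale, was 0.19. The difference between the lines was not tested, and line, strain and culture cannot be told apart.

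**Figure D1:**
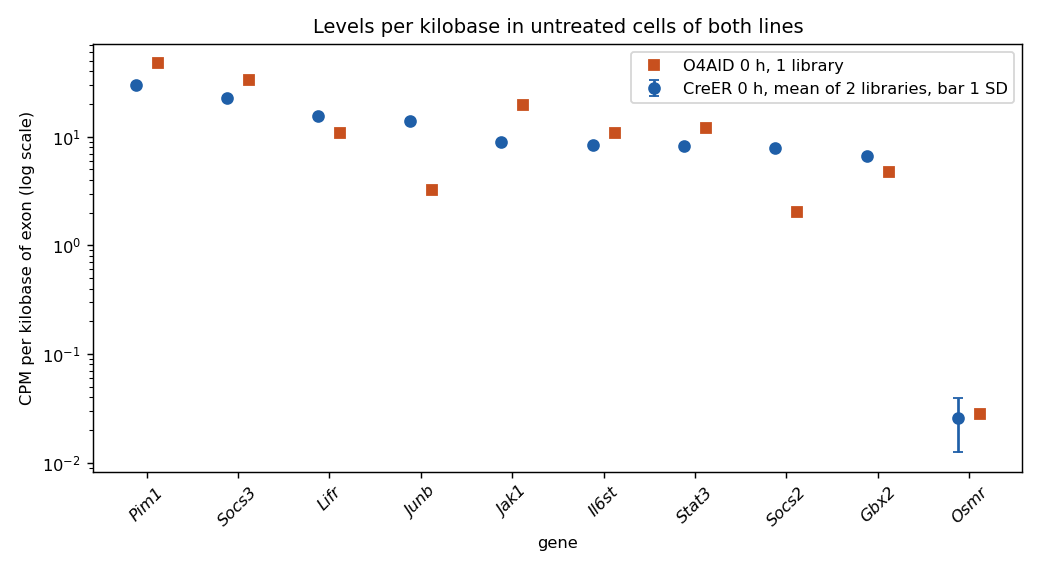
CPM per kilobase of exon (log scale) of each gene in untreated cells, with the CreER mean of 2 libraries as circles (bars, 1 SD) and the single O4AID library as squares. *Pim1* and *Socs3* lead in both lines, *Osmr* lies below 0.03 in both, and *Junb* and *Socs2* show the widest gaps, with O4AID below CreER.

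The 10 CreER libraries were fitted with edgeR's quasi-likelihood test over 18969 genes, each time against 0 h, and a gene was called at a Benjamini-Hochberg adjusted p under 0.05. All 10 genes passed the filter on low counts. At 12 h, 1 of the 10 was lower (0.137% of all genes tested) and 0 were higher (0.258%), with an unadjusted p under 0.05 for 3 of the 10, and DESeq2 called 0. At 18 h, 2 were higher and 2 lower, against 4.73% and 3.79% of all genes tested. At 24 h, 1 was higher and 2 were lower, against 11.0% and 10.6%. At 36 h, 3 were higher and 3 lower, against 19.4% and 17.2%. The median log2 change of the 10 genes was 0.02, 0.01, 0.01 and 0.03 in order of time, beside 0.00, 0.01, 0.01 and 0.01 over all genes tested. The balance of higher and lower calls over all genes depended on the scaling: higher calls were 65.3% of the calls at 12 h, 51.0% at 24 h and 53.1% at 36 h, and 36.9%, 61.3% and 36.0% with total-count scaling. The 4 comparisons share the 0 h libraries.

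**Figure D2:**
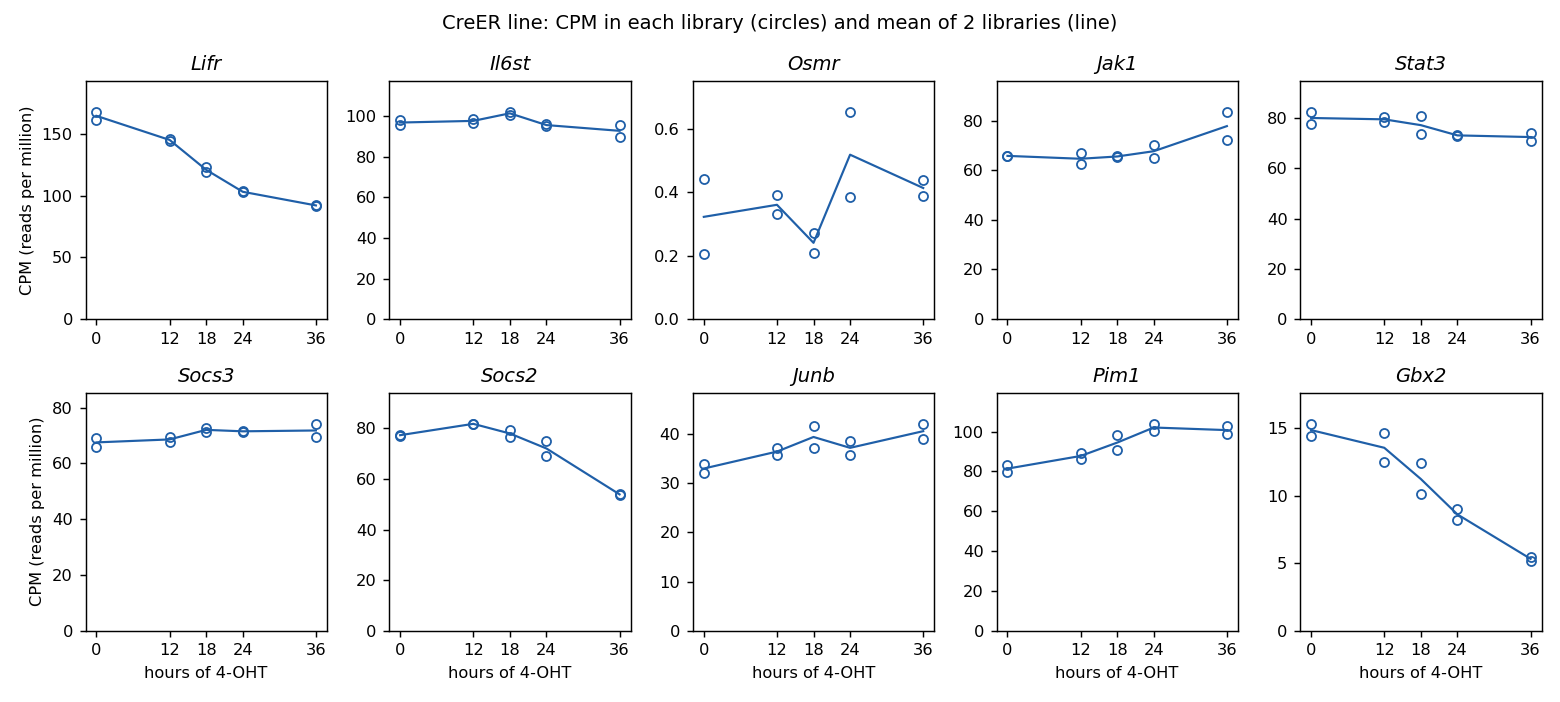
CPM of each gene in the CreER libraries against hours of 4-OHT, with each library as a circle and the line through the mean of 2. *Lifr* and *Gbx2* step down at each time, *Socs2* is lower at 36 h, *Pim1* is higher from 18 h, and *Il6st*, *Stat3* and *Socs3* stay close to their untreated level.

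In O4AID, with 1 library at each time, no p-value was computed and the differences compare those libraries. A gene was counted as past the fold at a change of at least 1 in log2(CPM + 1) against 0 h, among genes with at least 1 CPM in either library. *Osmr* was under 1 CPM in all 5 libraries and was not compared, which left 9 genes. None of the 9 was past the fold at 1.5 h, where 0.0288% of all genes compared were past it upwards and 0.0791% downwards. At 6 h it was 1 of 9, downwards (0.649% of all genes, with 0.514% upwards), and at 10 h again 1 of 9, downwards (1.23%, with 1.38% upwards). At 24 h, 3 of 9 were past the fold downwards and 0 upwards, against 3.48% and 4.74% of all genes compared. The median change of the 9 was 0.08, -0.10, 0.06 and -0.02 at the 4 times, beside -0.01, 0.00, -0.02 and -0.03 over all genes compared.

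**Figure D3:**
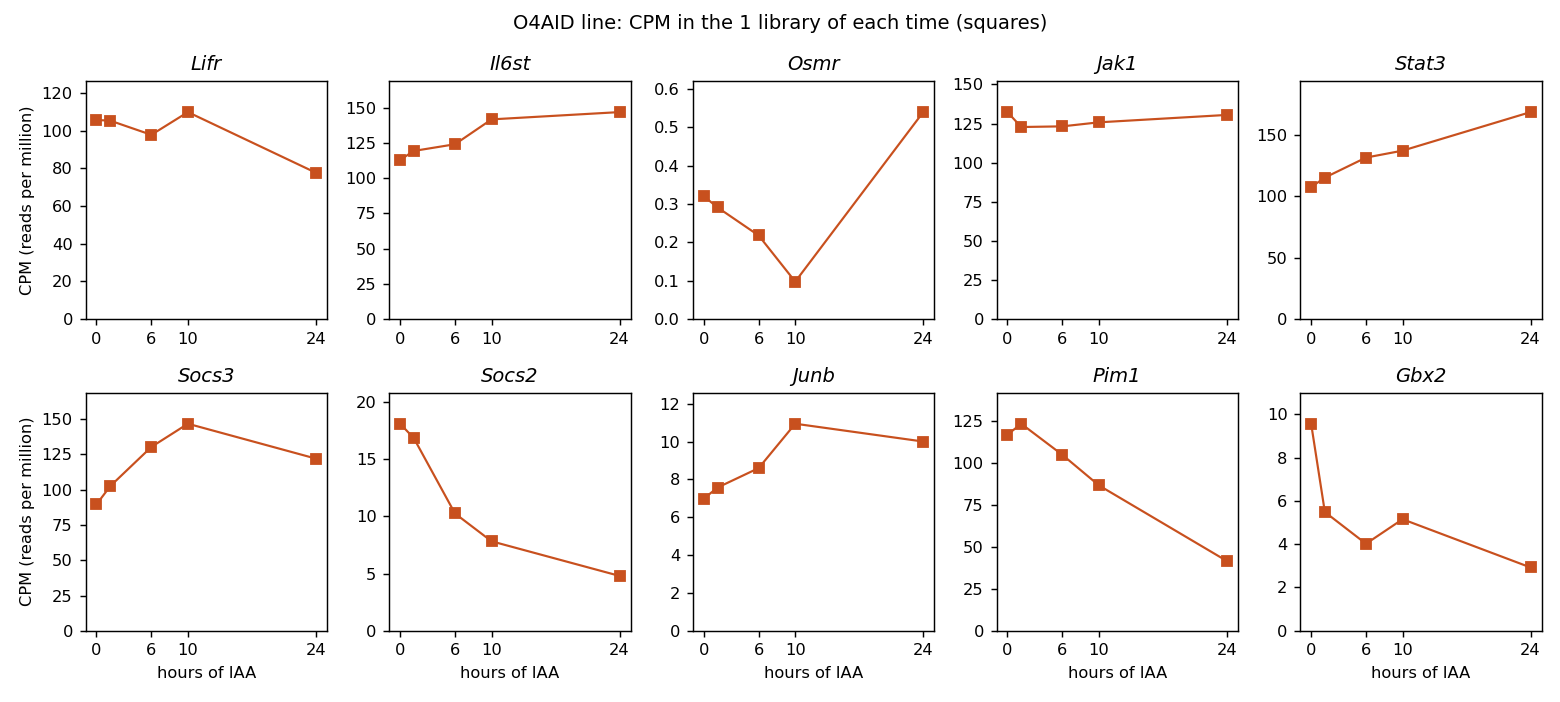
CPM of each gene in the single O4AID library of each time against hours of IAA. *Socs2*, *Pim1* and *Gbx2* stand lowest at 24 h, *Stat3* and *Il6st* stand highest at 24 h, and *Socs3* and *Junb* stand highest at 10 h.

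*Lifr* (ENSMUSG00000054263, chr15:7129559-7197489, plus strand, GRCm38) encodes the LIF-binding receptor chain. In CreER its level was 162 and 168 CPM in replicates 1 and 2 at 0 h, 145 and 146 at 12 h, 123 and 119 at 18 h, 103 and 104 at 24 h, and 91.6 and 92.7 at 36 h. Both libraries of every later time lay below both untreated libraries, and the 4 times did not overlap one another. *Lifr* fell by 0.18, 0.44, 0.67 and 0.83 on the log2 scale at 12, 18, 24 and 36 h (SE 0.0413, 0.0417, 0.0421 and 0.0430), with edgeR adjusted p of 0.0491, 6.52e-08, 4.07e-12 and 1.28e-14. The 12 h call was lost in the same direction with DESeq2 (adjusted p 0.0861), in a fit of only the 4 libraries compared (0.104), without replicate 2 of 0 h (0.307), without replicate 1 (0.556) or 2 (0.277) of 12 h, and without any 1 of the 18 h and 24 h libraries (0.0819 to 0.0829). Over the 17 alternatives tried its adjusted p was 0.0174 to 0.556 at 12 h and at most 3.12e-05 at the later times. In O4AID, at 0, 1.5, 6, 10 and 24 h, *Lifr* stood at 106, 105, 97.8, 109.8 and 77.7 CPM. The 24 h library stood apart below the other 4. Its change was -0.44 on the log2(CPM + 1) scale, and the 95% exact interval of the log2 ratio of reads was -0.51 to -0.38.

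*Il6st* (ENSMUSG00000021756, chr13:112464070-112510086, plus strand) encodes the signal-transducing chain shared by the IL-6 family. In CreER it stood at 95.7 and 97.8 CPM at 0 h, 96.7 and 98.5 at 12 h, 101 and 102 at 18 h, 95.1 and 95.9 at 24 h, and 95.8 and 89.6 at 36 h. The later libraries overlapped the untreated ones at every time but 18 h, where both lay above. The log2 changes were 0.01, 0.07, -0.02 and -0.05 in order of time (adjusted p 0.966, 0.382, 0.825 and 0.432), and with total-count scaling the signs at 12 h and 24 h turned, to -0.026 and 0.005, and the 36 h value was -0.13 with an adjusted p of 0.0350. In O4AID the levels were 113, 119, 124, 142 and 147 CPM in order of time. Each later library stood above the untreated one. The 24 h change was 0.38 on the log2(CPM + 1) scale, with a read-ratio interval of 0.33 to 0.43.

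*Osmr* (ENSMUSG00000022146, chr15:6813577-6874969, minus strand) held 6 to 20 reads in the CreER libraries and 4 to 26 in the O4AID libraries. Its CreER levels were 0.441 and 0.204 CPM at 0 h, 0.391 and 0.330 at 12 h, 0.272 and 0.209 at 18 h, 0.653 and 0.384 at 24 h, and 0.440 and 0.387 at 36 h. Each time overlapped the untreated libraries. No difference was detectable at this depth: the log2 changes were 0.22, -0.38, 0.75 and 0.41, with SEs of 0.45 to 0.542 and adjusted p of 0.257 to 0.947. In O4AID the gene had 15, 13, 9, 4 and 26 reads in order of time.

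*Jak1* (ENSMUSG00000028530, chr4:101152367-101265282, minus strand) encodes a tyrosine kinase bound to the receptors, and 4 of its exon bases are shared with *Raver2* on the other strand. In CreER it stood at 65.7 and 65.8 CPM at 0 h, 66.7 and 62.5 at 12 h, 65.8 and 65.2 at 18 h, 65.0 and 70.3 at 24 h, and 83.4 and 72.1 at 36 h. Only at 36 h did both libraries lie above both untreated ones. The 36 h log2 change was 0.26 (SE 0.0594, adjusted p 0.00118), and the 3 earlier ones, -0.02, 0.00 and 0.04, had adjusted p of 0.960, 1.0 and 0.682. Without replicate 1 of 36 h, the higher of the pair, the 36 h change was 0.15 with an adjusted p of 0.0844, the highest over the 17 alternatives, the lowest being 3.81e-05. In O4AID *Jak1* stood at 132, 123, 123, 126 and 130.5 CPM in order of time. The levels of the 5 libraries lay within a narrow span. The 24 h change was -0.02 on the log2(CPM + 1) scale (read-ratio interval -0.071 to 0.031) and 0.092 with total-count scaling.

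*Stat3* (ENSMUSG00000004040, chr11:100885098-100939540, minus strand) encodes the transcription factor at the end of the pathway. It shares 72 exon bases with *Stat5a*, which lies on the other strand. In CreER its level was 82.3 and 77.6 CPM at 0 h, 80.4 and 78.4 at 12 h, 80.6 and 73.6 at 18 h, 73.2 and 72.9 at 24 h, and 74.1 and 70.7 at 36 h. Both libraries of 24 h and both of 36 h lay below the untreated pair. The log2 changes were -0.01, -0.05, -0.13 and -0.13 (SE 0.0517 to 0.0529), and none passed the test, with adjusted p of 0.987, 0.644, 0.0793 and 0.0546. At 36 h the adjusted p lay between 0.00324 and 0.299 over the 17 alternatives and the value between -0.22 and -0.09. Among the alternatives, it passed with RLE size factors (0.0402), total-count scaling (0.00324), no filter on low counts (0.0353) or at least 10 counts in every library (0.0466), and without replicate 2 of 0 h (0.0266), replicate 1 of 36 h (0.0477) or replicate 2 of 18 h (0.05 when rounded, under the threshold). At 24 h it passed without replicate 2 of 0 h (-0.18, adjusted p 0.0438) and without replicate 2 of 36 h (-0.13, adjusted p 0.0477).

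In O4AID *Stat3* stood at 107, 115, 131, 137 and 168 CPM in order of time. Each library stood above the one of the time before it. The change on the log2(CPM + 1) scale was 0.10, 0.29, 0.35 and 0.64 at the 4 times, under the fold of 1 at each. The read-ratio interval at 24 h was 0.60 to 0.70 on the log2 scale. The largest gap between CreER replicates of *Stat3* at any time was 0.131 on the log2(CPM + 1) scale, which is a measure of spread in the other line only.

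*Socs3* (ENSMUSG00000053113, chr11:117966079-117970047, minus strand) encodes the inhibitor that STAT3 induces and that blocks JAK at the receptor, and carried the STAT element printed above. In CreER it stood at 69.1 and 66.0 CPM at 0 h, 69.4 and 67.8 at 12 h, 71.3 and 72.8 at 18 h, 71.3 and 71.7 at 24 h, and 74.2 and 69.4 at 36 h. From 18 h on both libraries lay above both untreated ones. The log2 changes were 0.03, 0.10, 0.09 and 0.10 (SE 0.0495 to 0.0504), and none passed the test, with adjusted p of 0.925, 0.247, 0.242 and 0.117. The 12 h sign turned with total-count scaling, to -0.013. In O4AID *Socs3* stood at 89.6, 102, 130.3, 147 and 122 CPM in order of time. Each later library stood above the untreated one, with the highest level at 10 h. The changes were 0.19, 0.54, 0.71 and 0.44 on the log2(CPM + 1) scale, with read-ratio intervals of 0.66 to 0.77 at 10 h and 0.39 to 0.50 at 24 h that did not overlap.

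*Socs2* (ENSMUSG00000020027, chr10:95385362-95417180, minus strand) encodes another inhibitor of the family, best known for restraining growth hormone signalling. In CreER it stood at 77.5 and 77.0 CPM at 0 h, 81.8 and 81.7 at 12 h, 79.2 and 76.7 at 18 h, 69.0 and 75.0 at 24 h, and 53.7 and 54.0 at 36 h. The 12 h pair lay above the untreated pair and the 24 h and 36 h pairs below it, the last well below. *Socs2* fell by 0.51 on the log2 scale at 36 h (SE 0.0521, adjusted p 9.16e-09), and the earlier changes of 0.08, 0.02 and -0.10 did not pass (adjusted p 0.669, 0.887 and 0.155). In O4AID *Socs2* stood at 18.1, 16.8, 10.2, 7.81 and 4.79 CPM in order of time (847 reads at first and 231 at last). Each library stood below the one of the time before it. The changes were -0.10, -0.76, -1.11 and -1.72 on the log2(CPM + 1) scale, past the fold at 10 h and 24 h. The read-ratio interval at 24 h was -2.13 to -1.70. With a pseudocount of 5 the 10 h library was no longer past the fold.

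*Socs2* is also known to respond to the aryl hydrocarbon receptor, a sensor of indole compounds, and IAA is an indole. The summed level of 5 other genes known to respond to it (*Cyp1a1*, *Cyp1b1*, *Ahrr*, *Tiparp* and *Nqo1*) was 170, 196, 394, 576 and 892 CPM in O4AID in order of time, scaled over the 15 libraries. All 5 of these genes were past the fold upwards at 24 h, against 4.74% of all genes compared. In CreER, which saw no IAA, the sum was 166 and 171 CPM at 0 h and 187 and 192 CPM at 36 h. There 4 of the 5 were called higher and 1 lower at 24 h, against 11.0% and 10.6% of all genes tested. At 36 h, 3 were called higher and 1 lower, against 19.4% and 17.2%. In O4AID their sum moved upwards over the times at which *Socs2* moved downwards, so *Socs2* moved in the opposite direction to these genes. The part of the receptor in the *Socs2* values, and the direction of its effect on *Socs2*, were not tested.

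*Junb* (ENSMUSG00000052837, chr8:84974484-84978718, minus strand) encodes a component of the transcription factor AP-1. It shares 173 exon bases with *Prdx2* on the other strand, which held 7308 to 11038 reads a library, and the strand setting of the counting is not given in the sources used here. In CreER *Junb* stood at 33.9 and 32.0 CPM at 0 h, 35.7 and 37.1 at 12 h, 41.6 and 37.2 at 18 h, 35.7 and 38.6 at 24 h, and 39.0 and 42.0 at 36 h. Both libraries of every later time lay above both untreated ones. *Junb* rose at 18 and 36 h, by log2 changes of 0.26 (SE 0.0672, adjusted p 0.0136) and 0.31 (SE 0.0683, adjusted p 0.000683). The changes of 0.15 at 12 h and 0.17 at 24 h did not pass (adjusted p 0.547 and 0.0658), and the latter passed with total-count scaling (0.197, adjusted p 0.0395). The 18 h call was lost with DESeq2 (adjusted p 0.0539), without replicate 2 of 0 h (0.21, adjusted p 0.153) and without replicate 1 of 18 h (0.18, adjusted p 0.284). In O4AID *Junb* stood at 6.98, 7.57, 8.60, 10.9 and 10.0 CPM in order of time (327 reads at first). The later libraries all stood above the untreated one. The 24 h change was 0.46 on the log2(CPM + 1) scale, with a read-ratio interval of 0.31 to 0.73.

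*Pim1* (ENSMUSG00000024014, chr17:29490812-29496111, plus strand) encodes a survival kinase that is a classical STAT3 target, and shares 468 exon bases with *Gm26885* on the other strand (2 to 55 reads a library). In CreER it stood at 79.5 and 83.3 CPM at 0 h, 86.0 and 89.5 at 12 h, 98.1 and 90.8 at 18 h, 100.2 and 104 at 24 h, and 103 and 98.7 at 36 h. Every later library lay above both untreated ones. *Pim1* rose at 18, 24 and 36 h, by log2 changes of 0.22, 0.33 and 0.32 (SE 0.0496, 0.0493 and 0.05, with adjusted p of 0.00533, 1.65e-05 and 9.66e-06), while the 0.11 of 12 h did not pass (adjusted p 0.541). Without replicate 1 of 18 h the 18 h change was 0.16 with an adjusted p of 0.174. In O4AID *Pim1* stood at 117, 124, 105, 86.8 and 41.6 CPM in order of time (5482 reads at first and 2007 at last). The 24 h library stood far below the other 4. The changes were 0.08, -0.16, -0.43 and -1.47 on the log2(CPM + 1) scale, past the fold at 24 h, where the read-ratio interval was -1.57 to -1.42.

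*Gbx2* (ENSMUSG00000034486, chr1:89927956-89931179, minus strand) encodes a homeobox transcription factor induced by LIF in ESCs. It shares 946 exon bases with *D130058E05Rik* on the other strand, which held 18 to 165 reads a library. In CreER it stood at 14.4 and 15.3 CPM at 0 h, 12.5 and 14.6 at 12 h, 12.4 and 10.1 at 18 h, 9.04 and 8.18 at 24 h, and 5.48 and 5.17 at 36 h. From 18 h on both libraries lay below both untreated ones. *Gbx2* fell by 0.41, 0.78 and 1.47 on the log2 scale at 18, 24 and 36 h (SE 0.101, 0.105 and 0.120, with adjusted p of 0.0107, 2.82e-06 and 1.29e-10), and the -0.14 of 12 h did not pass (adjusted p 0.731). The 18 h call was lost with DESeq2 (adjusted p 0.0585), without replicate 2 of 0 h (-0.36, adjusted p 0.103) and without replicate 2 of 18 h (-0.26, adjusted p 0.264).

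In O4AID *Gbx2* stood at 9.56, 5.49, 4.02, 5.15 and 2.93 CPM in order of time (448, 245, 166, 211 and 141 reads). All later libraries stood below the untreated one, the 1.5 h library included. The changes were -0.70, -1.07, -0.78 and -1.43 on the log2(CPM + 1) scale, past the fold at 6 h and 24 h. The read-ratio interval was -1.03 to -0.57 at 1.5 h and -1.99 to -1.43 at 24 h. Against the 1.5 h library in place of the untreated one, the 6 h and 24 h changes were -0.37 and -0.73, and with a pseudocount of 5 they were -0.69 and -0.88 against the untreated library, under the fold in all 4 cases.

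**Figure D4:**
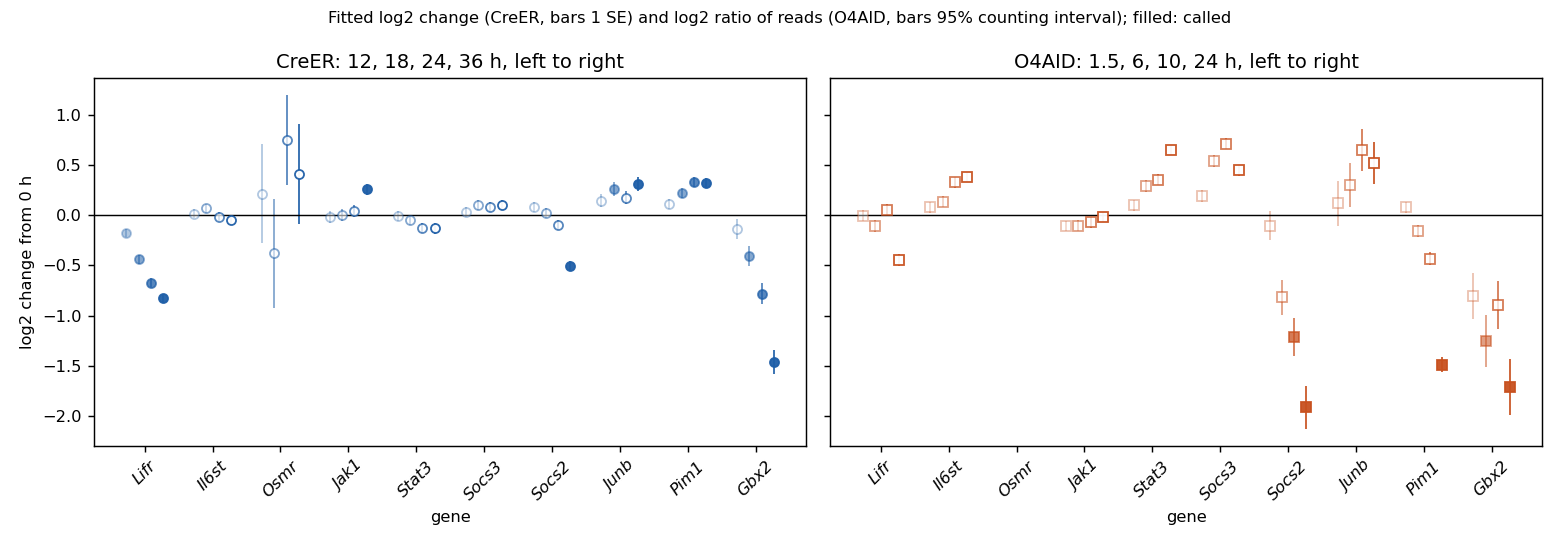
Log2 change from 0 h of each gene at each time, as the fitted value with 1 SE in CreER (left) and as the log2 ratio of reads with its 95% counting interval in O4AID (right), with filled symbols for called genes. In CreER *Lifr* and *Gbx2* are called lower at 3 or more times, and in O4AID *Socs2*, *Pim1* and *Gbx2* reach past the fold downwards.

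Both routes have a 24 h library, and the members' changes there were set side by side on the log2(CPM + 1) scale, O4AID first and CreER second. *Gbx2* (-1.43 and -0.72) and *Lifr* (-0.44 and -0.67) stood lower than at 0 h in both. *Junb* (0.46 and 0.17) and *Socs3* (0.44 and 0.08) stood higher in both, and *Socs2* stood lower in both by amounts far apart (-1.72 and -0.10). *Pim1* stood at -1.47 in O4AID and 0.32 in CreER, where the 2 libraries against the mean of 0 h gave 0.30 and 0.35. *Stat3* stood at 0.64 in O4AID and -0.13 in CreER, where the 2 libraries gave -0.13 and -0.13. *Il6st* (0.38 and -0.02) and *Jak1* (-0.02 and 0.04) differed in sign with values near 0 in at least one route. The median difference, O4AID minus CreER, was 0.13 over the 10 genes with *Osmr* included and 0.23 over the 9 compared in O4AID. The time after adding 4-OHT is not the time since OCT4 was lost, since the allele has first to be deleted and its mRNA and protein have to decay, and the difference between routes was not tested in this design with 1 O4AID library at each time.

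**Figure D5:**
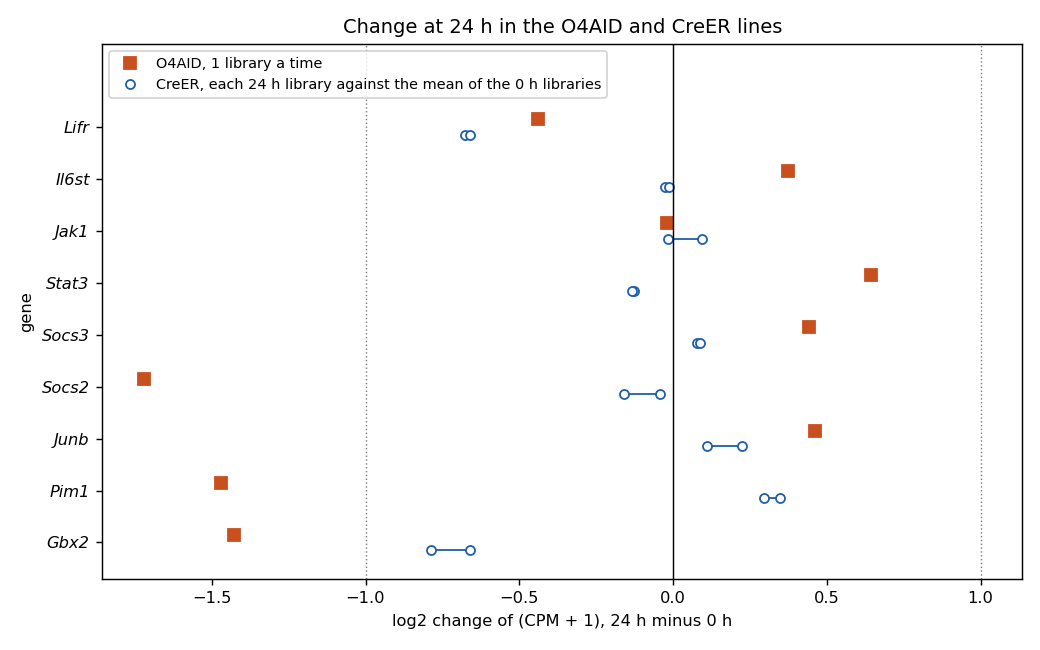
Change at 24 h in log2(CPM + 1) for the 9 genes compared in both lines, with O4AID as squares and each of the 2 CreER libraries against the mean of the 0 h libraries as circles (dotted lines, change of 1 in either direction). *Pim1* and *Stat3* lie on opposite sides of 0 in the 2 lines, and *Socs2* lies far apart on the same side.

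The other genes of the pathway were counted as 4 lists that hold none of the 10. Each count at 36 h in CreER stands beside 19.4% of all genes tested that were higher and 17.2% that were lower. Each count at 24 h in O4AID stands beside 4.74% of all genes compared that were past the fold upwards and 3.48% downwards. Among 12 genes for IL-6 family ligands and other receptors, 9 were tested in CreER, of which 3 were higher at 36 h (list median 0.36), or 1 with DESeq2. *Lif*, the ligand itself, went from 9.06 to 14.6 CPM, a rise of 0.71 on the log2 scale (SE 0.101, adjusted p 2.64e-06). *Clcf1*, another ligand of the family, rose by 1.65 from 14 reads over the 0 h libraries to 37 over the 36 h ones (SE 0.480, adjusted p 0.00788). *Clcf1* did not pass without replicate 1 of 36 h (1.40, adjusted p 0.0957) or without replicate 1 of 0 h (0.995, adjusted p 0.113). In O4AID 0 of the 6 compared were past the fold at 24 h (list median 0.47). *Lif* stood there at 7.43 CPM at 0 h and 14.5 CPM at 24 h, a change of 0.88 on the log2(CPM + 1) scale.

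Of the 9 other JAK and STAT genes, 4 were higher and 1 lower at 36 h in CreER (list median 0.12), while DESeq2 called 2 higher and 0 lower and total-count scaling gave 2 higher and 2 lower. *Jak2* rose by 0.48 (SE 0.105, adjusted p 0.000666). *Stat5a* rose by 0.51 (SE 0.186, adjusted p 0.0323), a call lost without any 1 of the 0 h or 36 h libraries (adjusted p 0.0713 to 0.140). *Stat4* fell by 0.52 (SE 0.152, adjusted p 0.00816), a call lost without replicate 1 of 0 h (-0.44, adjusted p 0.0635) or replicate 2 of 36 h (-0.39, adjusted p 0.109). In O4AID 0 of the 9 were past the fold at 24 h (list median 0.30). Of the 14 other negative regulators, which are phosphatases, PIAS proteins and further members of the SOCS family, 4 were higher and 1 lower in CreER at 36 h (list median 0.02), with 2 higher by DESeq2 and 2 higher and 3 lower with total-count scaling. *Pias3*, named for inhibiting activated STAT3, rose by 0.37 (SE 0.0662, adjusted p 5.38e-05) and *Pias1* by 0.29 (SE 0.0625, adjusted p 0.000461), while *Pias2* fell by 0.53 (SE 0.0408, adjusted p 4.39e-11). In O4AID 0 of the 13 compared were past the fold at 24 h (list median 0.05). *Pias2* was just short of it, at 256 CPM at 0 h and 128 CPM at 24 h, a change of -0.993 on the log2(CPM + 1) scale. Without replicate 1 of 0 h or replicate 1 of 36 h, 1 ligand or receptor gene was higher in place of 3. The count of negative regulators that were higher in CreER was 2 in place of 4 without either of these libraries, and the count of other JAK and STAT genes that were higher was 2 in place of 4 without replicate 2 of 0 h or either 36 h library.

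Of 10 further genes that respond to LIF or STAT3, 3 were higher and 5 lower in CreER at 36 h (list median -0.06). *Fos*, which encodes a partner of JUNB in AP-1, rose by 0.82 (SE 0.202, adjusted p 0.00213), a call lost without replicate 2 of 0 h (0.58, adjusted p 0.0647). *Tfcp2l1*, a naive pluripotency factor gene downstream of STAT3, rose by 0.65 (SE 0.0494, adjusted p 1.17e-10). *Myc* fell by 1.21 (SE 0.0878, adjusted p 1.22e-11) and *Klf5*, a pluripotency factor gene, by 0.76 (SE 0.0813, adjusted p 3.06e-07). In O4AID 2 of the 9 compared were past the fold downwards at 24 h and 0 upwards, against 3.48% and 4.74% of all genes compared (list median -0.45). *Klf4*, a pluripotency factor gene induced by LIF, stood at 153 CPM at 0 h and 28.3 CPM at 24 h, a change of -2.40 on the log2(CPM + 1) scale. *Tfcp2l1* stood at 1598 CPM and 501 CPM, a change of -1.67.

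The genes whose pattern over the 15 libraries was most like that of *Socs3* and *Lifr* were looked up among 9736 genes with a mean of at least 10 CPM, by Pearson's r of log2(CPM + 1) centred within each line. Those near *Socs3* included *Lrrc8c* (r = 0.939) and *Nxn* (0.936). Within the 5 O4AID libraries alone these genes had r of 0.958 and 0.970, and within the 10 CreER libraries 0.794 and 0.696, so the likeness lay more in the O4AID course. For *Lifr* they were *Hltf* (0.963), *4930453N24Rik* (0.962) and *L3mbtl2* (0.961), with r of 0.977, 0.984 and 0.974 in CreER and 0.890, 0.840 and 0.949 in O4AID. The libraries share their time courses, so these values are descriptions.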

How the data were processed

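The authors depleted ribosomal RNA, made directional libraries, trimmed reads with Trim Galore 0.1.4, aligned them to GRCm38/mm10 with TopHat2 2.1.0 and counted them per gene with featureCounts 1.5.1, per the labels. Strand and multimapping settings are not given in the sources used here. The deposited files, 1 a library, hold raw counts of reads per gene, and 92 spike-in entries, all at 0 reads, were left out. A deposited table of TMM-scaled values was not used.

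CreER counts were tested with edgeR 4.0.16 in R 4.3.3 (TMM factors, filterByExpr, robust quasi-likelihood, all 10 CreER libraries, each time against 0 h), with Benjamini-Hochberg adjustment over 18969 genes. The study's own method, which simulates replicates, was not used. O4AID values were compared as log2(CPM + 1), with exact (Clopper-Pearson) 95% intervals of the ratio of reads (SciPy 1.17.1). CPM of a line used TMM factors over that line, and CPM set across lines used factors over all 15 libraries. Replicates differed by more than sampling noise. Both procedures were tested on simulated data. Alternatives were DESeq2 1.42.0, RLE and total-count scaling, other filters, pseudocounts, thresholds and references, a replicate block, and leaving out each library.

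The 10 genes and all lists were chosen with earlier results of these data known. From each of the other pathway lists, up to 2 of the largest called rises and 2 of the largest called falls were named, at 36 h in CreER and at 24 h in O4AID. Results for some genes of these lists and lookups are not reported here.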

Additional observations from a re-analysis of the deposited data

Results flagged for a closer look

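*Stat3* at 24 h lay on opposite sides of its untreated level in the 2 lines: the change in O4AID was 0.644 on the log2(CPM + 1) scale, while both CreER libraries lay below both of their 0 h libraries. *Pim1* did so the other way round, with -1.469 in O4AID and both CreER libraries above both of their 0 h libraries. In CreER the 24 h change of *Stat3* did not pass the edgeR test (-0.128, adjusted p 0.0793), while that of *Pim1* did (0.327, adjusted p 1.65e-05). The share of all genes that lay on opposite sides in this way was not computed. Neither difference between the lines was tested, and O4AID has 1 library at each time.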

How the results depend on the processing

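The causes of the shifts below were not tested. In CreER at 12 h the 75 genes called became 222 without a filter on low counts and 8 to 218 without any 1 library (8 without replicate 1 of 12 h, 12 without replicate 2 of 12 h, 218 without replicate 1 of 0 h), and the 1 of the 10 pathway genes called became 0 with DESeq2, 0 with only the 4 libraries compared and 0 to 1 without any 1 library. At 18 h the 1616 genes became 956 with DESeq2 and 582 to 2006 without any 1 library, and the 4 pathway genes became 2 with DESeq2 and 2 to 4 without any 1 library. At 24 h the 4089 genes became 2523 with DESeq2 and 2343 to 4509 without any 1 library. At 24 h and 36 h, 3 to 4 and 6 to 7 pathway genes were called without any 1 library. With total-count scaling the 12 h changes of *Il6st* and *Socs3* turned to -0.026 and -0.013 and the 24 h change of *Il6st* to 0.005. Without any 1 library, uncalled changes that turned sign ranged at 12 h from -0.001 to 0.026 (*Il6st*), -0.276 to 0.827 (*Osmr*), -0.074 to 0.022 (*Jak1*), -0.052 to 0.040 (*Stat3*) and -0.011 to 0.062 (*Socs3*), at 18 h from -0.870 to 0.233 (*Osmr*), -0.012 to 0.011 (*Jak1*), -0.118 to 0.022 (*Stat3*) and -0.009 to 0.044 (*Socs2*), at 24 h from -0.021 to 0.099 (*Jak1*) and at 36 h from -0.077 to 1.026 (*Osmr*). No called change of the 10 genes turned sign under any alternative tried.

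The labels give CreER replicates the numbers 1 and 2, but libraries of the same number did not deviate together (r of -0.125 to 0.132 between times over 10011 genes), so the numbers were not taken as pairs. With the replicate block the 36 h change of *Stat3* was -0.132 with an adjusted p of 0.0375, and no other call of the 10 genes changed.

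In O4AID the genes past the fold (15, 163, 367 and 1178 in order of time) became 66, 364, 676 and 1883 with a pseudocount of 0.1, 7, 62, 147 and 490 with a pseudocount of 5, and 210, 1095, 1840 and 4208 at a threshold of 0.5, and the 163 at 6 h became 88 against the 1.5 h library. Of the pathway genes, a threshold of 0.5 gave 1, 3 and 4 past it at 1.5, 6 and 10 h, a pseudocount of 5 gave 0 at 6 h and 0 at 10 h, and the 1.5 h reference gave 0 at 6 h. Total-count scaling moved the median of all genes by 0.108 at 24 h in O4AID, so changes there are relative to that shift. The median 24 h difference between the lines (0.126) was 0.143 with a pseudocount of 0.1, 0.182 with total-count scaling, 0.149 with CreER 36 h in place of 24 h, 0.109 to 0.117 with 1 CreER replicate number alone and 0.229 over the 9 genes compared in O4AID, an alternative chosen after seeing the data, and the untreated median difference (0.192) was 0.063 with total-count scaling. Depth limits *Osmr* most, at no more than 26 reads a library.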

Other observations

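A ligand gene and a target gene of the pathway stood at very different levels in the 2 lines. *Osm*, which encodes oncostatin M, the ligand of OSMR, held 443 to 788 reads in each of the 5 O4AID libraries (9.74 to 20.2 CPM scaled over the 15 libraries) and 1 to 7 reads in each of the 10 CreER libraries (0.0391 to 0.281 CPM). *Myc* stood the other way round, with 227 to 803 reads in each CreER library (10.4 to 25.5 CPM) and 1 to 4 in each O4AID library, 12 in all. The *Osm* and *Myc* values did not overlap between the lines at any time. These genes were picked out after their values were seen, and line, strain, transgenes and culture cannot be told apart.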
